A study of Homo sapiens with 2 samples.

Results

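Collagens, laminin chains and 6 further matrix proteins were followed in the human embryonic stem cell line H9, with and without knockdown of HNRNPA1, which encodes hnRNP A1, a protein that regulates splicing. The genes were taken by name from the deposited transcript table. They comprise every collagen chain, every laminin alpha, beta and gamma chain, and FN1, SPARC, MMP2, NID1, HSPG2 and AGRN. This gave 62 of the 20263 genes in the table, made up of 44 collagens, 12 laminin chains and the 6 others. Of the 62, 38 had a mean of at least 1 FPKM (fragments per kilobase of transcript and library size) over both libraries, as did 11921 of all genes. The members just inside that minimum were COL22A1 at a mean of 1.11 FPKM and COL6A3 at 1.17. Just outside it were COL8A2 at 0.915 and COL25A1 at 0.870.

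There were 2 libraries. The cells of one had been treated for 48 h with small interfering RNA against HNRNPA1 and those of the other for 48 h with a control small interfering RNA, and the labels name no other agent or allele. Values after knockdown are those of the siHNRNPA1 library. With 1 library per condition there is no estimate of the spread between replicates, so no test was made and no difference below has a replicate check. Folds are log2((siHNRNPA1 + 1)/(control + 1)) of FPKM, which understates the fold of a weakly expressed gene, and 2-fold was the size from which genes were counted. Intervals are exact 95% counting intervals on the estimated counts and cover neither sample variation nor errors in dividing reads between transcripts. In bulk RNA, fewer cells of a kind and less RNA per cell cannot be told apart.

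The extracellular matrix is the protein scaffold that cells secrete and attach to. Its sheet-like form, the basement membrane, is laid down beneath epithelia and pluripotent cells. It is built from cross-shaped laminin trimers of 1 alpha, 1 beta and 1 gamma chain and from a network of type IV collagen. Nidogen and the heparan sulfate proteoglycans perlecan and agrin bind both. Fibronectin and the fibrillar collagens form the fibres of the interstitial matrix, and integrins and dystroglycan connect these layers to the cell.

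The summed estimated counts were 28147828 (siHNRNPA1 library) and 26680342 (control library). HNRNPA1 itself had 179.9 FPKM after knockdown and 663 in the control, which is 27.1% of the control level. All 10 listed markers of pluripotent cells passed 1 FPKM, with a summed level of 2438 and 2457 FPKM. The largest part of each sum was POU5F1, at 1355 FPKM after knockdown and 864 in the control. At least 2-fold lower were 3 of the 10, DPPA4 (119 and 346 FPKM), PODXL (102 and 312) and SOX2 (58.3 and 126). Of all genes with a mean of at least 1 FPKM, 21.9% were at least 2-fold lower. Of 8 fibroblast markers other than collagens 4 passed. The sum of the 8 was 196 and 243 FPKM, nearly all of it THY1, which pluripotent cells also carry. The others that passed were S100A4 (10.3 and 4.20 FPKM, a log2 fold of 1.12), PDGFRB (2.65 and 3.61) and TWIST2 (0.948 and 2.48). The fibroblast proteoglycans DCN and LUM were listed at 0 in both libraries. None of the 7 markers of primitive and parietal endoderm and none of the 3 mesendoderm markers in the table passed 1 FPKM. Of 5 endothelial markers KDR alone passed, and their sum was 8.54 and 32.5 FPKM. Mitochondrially encoded transcripts made up 18.1% of TPM (transcript abundance scaled to a fixed total) after knockdown and 28.2% in the control. Whether that difference bears on the matrix genes was not tested.

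In the siHNRNPA1 library 27 of the 38 matrix genes were below and 11 above their control level, and none was 2-fold higher. The share of all genes below their control level was not counted. Of the 38 genes, 16 were at least 2-fold lower, where 21.9% of all genes kept were, and 0 were at least 2-fold higher, where 12.4% of all genes were. Their median log2 fold was -0.46, beside -0.13 over all genes, so most of all genes kept were below their control level too. Folds also ran with base composition and length over the whole table, so an adjusted fold was computed beside the plain one. From it was taken off the median fold of the 100 genes that lay closest by level, transcript GC content and transcript length. By the adjusted fold 9 of the 38 genes were at least 2-fold lower, where 7.92% of all genes were, and 0 were 2-fold higher, where 7.99% were. By the plain fold 8 of the 25 collagens, 3 of the 7 laminin chains and 5 of the 6 other proteins were at least 2-fold lower. By the adjusted fold these counts were 4, 1 and 4. Members were chosen with earlier results of these data known, so the counts are not independent of that choice. Summed over all 62 members, the level was 624 FPKM after knockdown and 891 in the control, or 70.1%. The families differed in these sums. Collagens together stood at 91.1% of control (379 and 416 FPKM), laminin chains at 58.6% (80.9 and 138 FPKM) and the 6 other proteins at 48.9% (165 and 336 FPKM). Over the genes kept, collagens and laminin chains had closer medians, at -0.33 and -0.43 by the plain fold. By the adjusted fold these medians were -0.39 and -0.36. The 6 other proteins had medians of -1.41 by the plain and -1.52 by the adjusted fold.

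**Figure D1:**
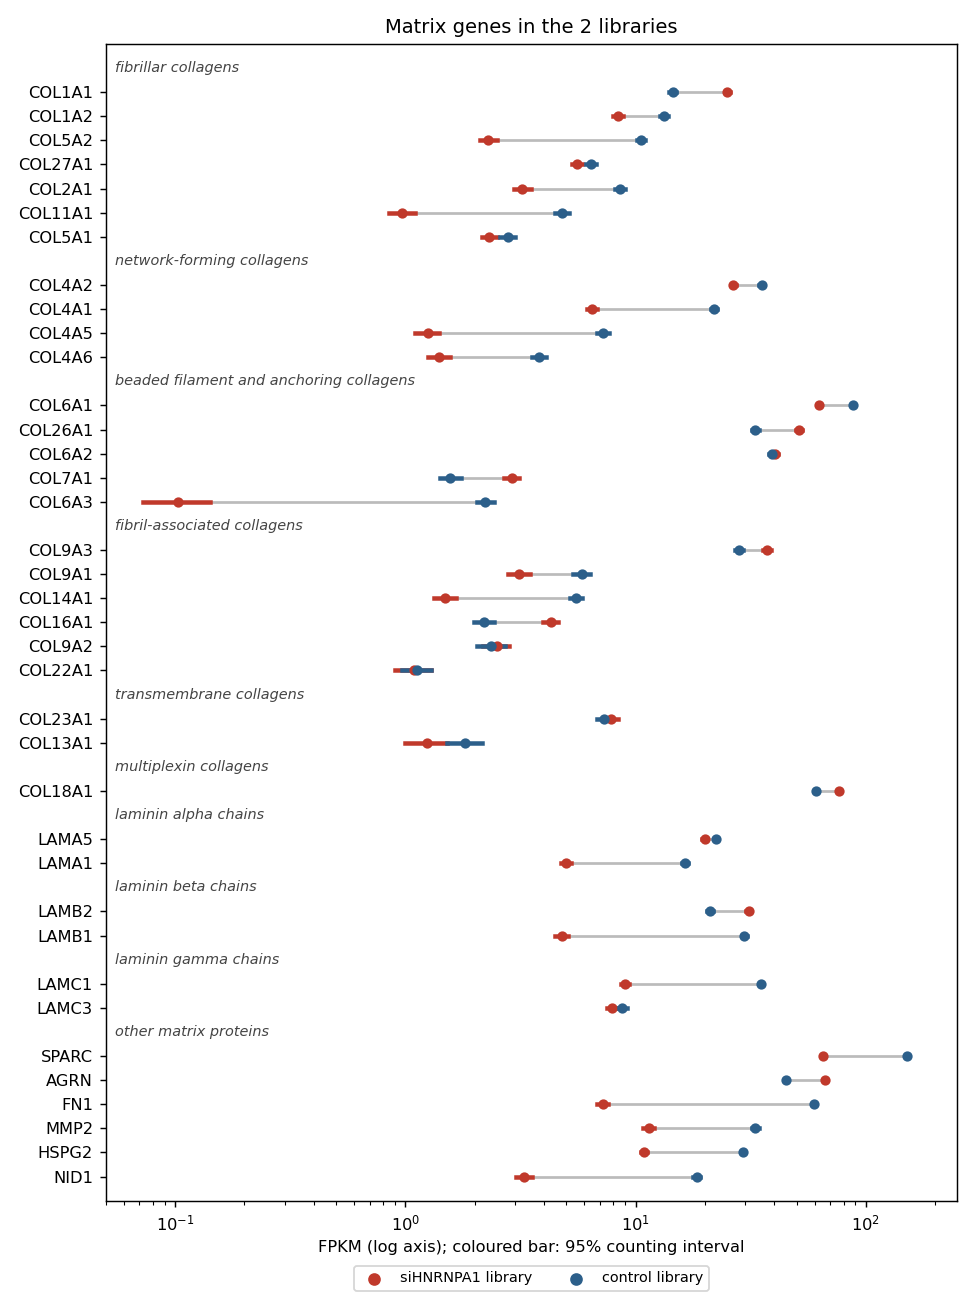
FPKM of 37 of the matrix genes in the siHNRNPA1 library (red) and the control library (blue) on a log axis, 1 library each, grouped by protein family, with 95% counting intervals as coloured bars. FN1, LAMB1, NID1 and LAMC1 lie far to the left of their control value, whereas AGRN, COL18A1, LAMB2 and COL1A1 lie to its right.

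The order of the genes by level also differed between the libraries. SPARC, a collagen-binding glycoprotein, was first in the control library with 16.9% of the members' summed FPKM, followed by COL6A1 (9.92%), COL18A1 (6.80%) and FN1 (6.69%). In the siHNRNPA1 library COL18A1 was first (12.2%), followed by AGRN (10.7%), SPARC (10.4%) and COL6A1 (10.02%), and FN1 was 18th with 1.15%.

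Among the laminin chains, 3 of 7 were at least 2-fold lower by the plain fold, beside 21.9% of all genes. By the adjusted fold 1 of 7 was, LAMB1, beside 7.92% of all genes. LAMB1, the beta-1 chain (chromosome 7, 107923803 to 108003255, minus strand), had 4.77 FPKM after knockdown (4.47 to 5.09) and 29.7 in the control (28.9 to 30.5), a log2 fold of -2.41. LAMC1, the gamma-1 chain shared by most laminins (chromosome 1, 183023460 to 183145592, plus strand), had 9.03 (8.67 to 9.40) and 35.1 FPKM (34.4 to 35.9), a log2 fold of -1.85. LAMA1, the alpha chain of the first laminin of the embryo, had 4.98 (4.73 to 5.24) and 16.4 FPKM (16.0 to 16.9), a log2 fold of -1.54. None of these 3 pairs of counting intervals overlapped, but neither did those of LAMB2 and LAMA5, which were within 2-fold. The share of all genes with separate intervals was not counted. The adjusted folds were -1.62 for LAMB1, -0.86 for LAMC1 and -0.71 for LAMA1, so that LAMC1 and LAMA1 were then within 2-fold.

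The alternative chains were nearer to the control level. LAMB2, the beta-2 chain, had 31.01 FPKM (30.2 to 31.8) after knockdown and 21.1 (20.4 to 21.8) in the control, a log2 fold of 0.53. LAMA5, the alpha-5 chain, had 19.97 (19.5 to 20.4) and 22.4 FPKM (21.9 to 22.9), a log2 fold of -0.16. LAMC3 had 7.87 and 8.75 FPKM (-0.14). Chains that take the same place in the trimer were also compared as ratios. LAMB2 had 0.711 times the level of LAMB1 in the control library and 6.50 times that level in the siHNRNPA1 library, a change of 3.19 in log2 (3.07 to 3.31, counting error by normal approximation), and their adjusted folds were 0.35 and -1.62. The ratio of LAMA5 to LAMA1 was 1.36 in the control and 4.01 in the siHNRNPA1 library, a change of 1.56 (1.46 to 1.65). The adjusted folds of LAMA5 and LAMA1 were nearer to each other, at -0.36 and -0.71, so most of this change was not there after the adjustment. LAMA2, LAMA3, LAMA4, LAMB3 and LAMB4 were below the minimum. LAMA4, at 0.457 and 0.622 FPKM, LAMB3, at 0.863 and 0.478, and LAMA2, at 0.185 and 0.735, reached 0.5 FPKM in at least 1 library.

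NID1, or nidogen-1, links laminin to type IV collagen (chromosome 1, 235975830 to 236065162, minus strand). It had 3.28 FPKM after knockdown (3.03 to 3.55) and 18.4 in the control (17.8 to 19.0), a log2 fold of -2.18. HSPG2 encodes perlecan, a large proteoglycan of basement membranes (chromosome 1, 21822245 to 21937297, minus strand). It had 10.9 (10.6 to 11.2) and 29.4 FPKM (28.9 to 29.9), a log2 fold of -1.35. Both were thus more than 2-fold lower, on the same side as LAMB1 and LAMC1.

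The 4 measured type IV collagen chains were all lower, 3 of them at least 2-fold by the plain fold and 2, COL4A1 and COL4A5, by the adjusted fold. Of all genes kept, 21.9% were at least 2-fold lower by the plain fold and 7.92% by the adjusted fold. COL4A1 (chromosome 13, 110148963 to 110307149, minus strand) had 6.46 FPKM after knockdown (6.12 to 6.81) and 21.9 in the control (21.3 to 22.6), a log2 fold of -1.62. COL4A2, its partner in the common trimer and its neighbour on the opposite strand, had 26.5 (25.8 to 27.3) and 35.4 FPKM (34.5 to 36.2), a log2 fold of -0.40. The spans of the 2 genes in the table overlap at their starts, and no exon of one overlaps the other. The ratio of COL4A2 to COL4A1 was 1.61 in the control library and 4.11 in the siHNRNPA1 library, a change of 1.35 in log2 (1.25 to 1.45). Their adjusted folds were nearer to each other, at -0.63 and -1.25.

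The second such pair lies on chromosome X, with 409 bases between the genes. COL4A5 had 1.25 (1.10 to 1.41) and 7.22 FPKM (6.83 to 7.63), a log2 fold of -1.87. COL4A6 had 1.40 (1.25 to 1.56) and 3.82 FPKM (3.56 to 4.09), a log2 fold of -1.01, just past 2-fold, and an adjusted fold of -0.36. COL4A3 and COL4A4, the chains of the kidney filter, were below the minimum.

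AGRN, which encodes the proteoglycan agrin (chromosome 1, 1020123 to 1056118, plus strand), was on the other side, with 66.8 FPKM after knockdown (65.8 to 67.8) and 45.0 in the control (44.1 to 45.9), a log2 fold of 0.56. Its transcripts also differed in make-up. Agrin comes in a form without inserts, made by most cells, and in forms with short inserts at sites called y and z. The y insert bears on heparin binding, and the z inserts give the neural form that clusters acetylcholine receptors through LRP4 and MUSK. The table holds 1 full-length transcript with all the inserts, ENST00000620552, and 1 with none, ENST00000379370. The exon sequences that tell them apart are shown from the GENCODE transcripts (GRCh38, 5′ to 3′), with the alternative exons in capitals and 10 bases of the neighbouring exons in lower case. The y exon has 12 bases (chromosome 1, 1051032 to 1051043). The z exons, of 24 bases (1051993 to 1052016) and 33 bases (1053461 to 1053493), follow each other directly in the transcript. All 3 are coding.
AGRN y exon, held: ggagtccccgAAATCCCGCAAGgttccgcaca
AGRN y exon, skipped: ggagtccccggttccgcaca
AGRN z exons, held: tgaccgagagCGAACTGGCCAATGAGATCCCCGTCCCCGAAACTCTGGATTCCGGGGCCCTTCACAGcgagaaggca
AGRN z exons, skipped: tgaccgagagcgagaaggca

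Transcripts that hold these exons had 36.3 FPKM after knockdown and 8.61 in the control. Those that skip them had 29.9 and 35.8 FPKM. The form with inserts thus made up 54.8% of the AGRN transcripts that span the exons after knockdown and 19.4% in the control. In estimated counts the shares were 55.0% (54.2% to 55.8%, Clopper-Pearson) and 19.4% (18.7% to 20.2%), so the intervals were far apart. Since the table holds no full-length AGRN transcript with part of the inserts, the 3 exons cannot be told apart here.

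FN1 had the lowest fold of the 38 genes. The gene of fibronectin, the glycoprotein that cells assemble into fibrils through integrins (chromosome 2, 215360440 to 215436172, minus strand), had 7.20 FPKM after knockdown (6.83 to 7.57) and 59.6 in the control (58.5 to 60.7). This was 12.1% of the control level and a log2 fold of -2.89. Its estimated counts were 1473 and 11293.

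Fibronectin transcripts differ by 2 whole exons, EDB and EDA, each of which adds a fibronectin type III repeat. The forms with these repeats are known from embryos and healing wounds, and plasma fibronectin lacks them. The EDB exon has 273 bases (chromosome 2, 215392931 to 215393203) and the EDA exon 270 bases (215380811 to 215381080), both coding. They are shown as above, because their share of the FN1 transcripts differed between the libraries.
FN1 EDB exon, held: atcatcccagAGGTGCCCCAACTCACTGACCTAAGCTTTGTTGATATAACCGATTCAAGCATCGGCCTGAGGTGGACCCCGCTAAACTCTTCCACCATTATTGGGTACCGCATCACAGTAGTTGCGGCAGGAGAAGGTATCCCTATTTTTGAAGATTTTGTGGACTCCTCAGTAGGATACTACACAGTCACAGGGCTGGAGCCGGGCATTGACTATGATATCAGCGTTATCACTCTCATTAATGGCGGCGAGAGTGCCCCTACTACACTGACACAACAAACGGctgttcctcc
FN1 EDB exon, skipped: atcatcccagctgttcctcc
FN1 EDA exon, held: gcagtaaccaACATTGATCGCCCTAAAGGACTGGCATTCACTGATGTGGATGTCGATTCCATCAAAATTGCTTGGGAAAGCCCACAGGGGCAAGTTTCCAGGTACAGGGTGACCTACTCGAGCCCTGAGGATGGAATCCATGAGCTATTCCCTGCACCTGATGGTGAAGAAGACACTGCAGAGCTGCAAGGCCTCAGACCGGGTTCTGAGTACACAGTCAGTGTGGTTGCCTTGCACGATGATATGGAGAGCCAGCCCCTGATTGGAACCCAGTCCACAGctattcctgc
FN1 EDA exon, skipped: gcagtaaccactattcctgc

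FN1 transcripts that hold EDA had 4.85 FPKM after knockdown and 24.3 in the control, whereas those that span its place without it had 0.0509 and 30.7 FPKM. Both kinds were lower, but by different amounts. EDA was held in 99.0% of the spanning FPKM after knockdown and in 44.2% in the control, or in 99.0% (98.3% to 99.5%) and 57.5% (56.5% to 58.4%) of the counts. Most of the EDA-skipping FPKM in the control library, 21.1, came from ENST00000456923, an incomplete model that begins inside the EDB exon and was listed at 0 in the siHNRNPA1 library. Over the 10 models that span both exons, EDA was held in 99.0% and 71.6%. EDB was held in 93.1% of the spanning FPKM after knockdown and in 56.9% in the control, or in 93.5% (92.1% to 94.7%) and 59.1% (58.0% to 60.1%) of the counts.

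Transcript make-up was compared for the 20 members with 2 or more transcripts and 5 FPKM or more in each library. A transcript's share of its gene differed by at least 20 percentage points in 4 of them, AGRN, FN1, MMP2 and SPARC, where 40.6% of the 5715 genes compared in all did. The members' count is not above that share. For FN1 the transcripts concerned were ENST00000456923, with 0% of FPKM after knockdown and 35.3% in the control, ENST00000323926, which holds both exons, with 46.8% and 16.9%, and the short ENST00000438981, with 31.9% and 7.72%.

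MMP2 encodes a gelatinase, which cleaves denatured collagen and type IV collagen. The gene had 11.4 FPKM after knockdown (10.8 to 12.04) and 33.2 in the control (31.9 to 34.5), a log2 fold of -1.46. This sum hides opposite values of its 2 main transcripts. ENST00000437642 was listed at 0 in the siHNRNPA1 library and had 28.96 FPKM in the control, 87.3% of the gene. ENST00000219070, which begins at another first exon, had 10.9 FPKM after knockdown and 3.73 in the control, that is 95.2% and 11.2% of the gene. The split of reads between these transcripts is an estimate, and a listed 0 may come from it.

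SPARC had 65.01 FPKM after knockdown (63.6 to 66.5) and 151 in the control (148 to 154), a log2 fold of -1.20. Of the control level, 45.3 FPKM came from ENST00000521569, a transcript of only 602 bases that had 0.790 FPKM in the siHNRNPA1 library. The full transcript, ENST00000231061, had 63.7 and 101 FPKM. In CPM (estimated counts scaled to the library total), which do not weight transcripts by length, the log2 fold of SPARC was -0.75, within 2-fold, and its adjusted fold was -0.998.

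LAMB1 fell short of 5 FPKM in the siHNRNPA1 library and was looked at with a lower minimum of 2 FPKM. ENST00000222399 had 19.2 FPKM in the control library and was listed at 0 in the siHNRNPA1 library, as were 3 shorter LAMB1 transcripts. ENST00000393561, which begins further downstream, had 4.77 and 7.33 FPKM, so that it held all of LAMB1 after knockdown and 24.7% in the control.

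**Figure D2:**
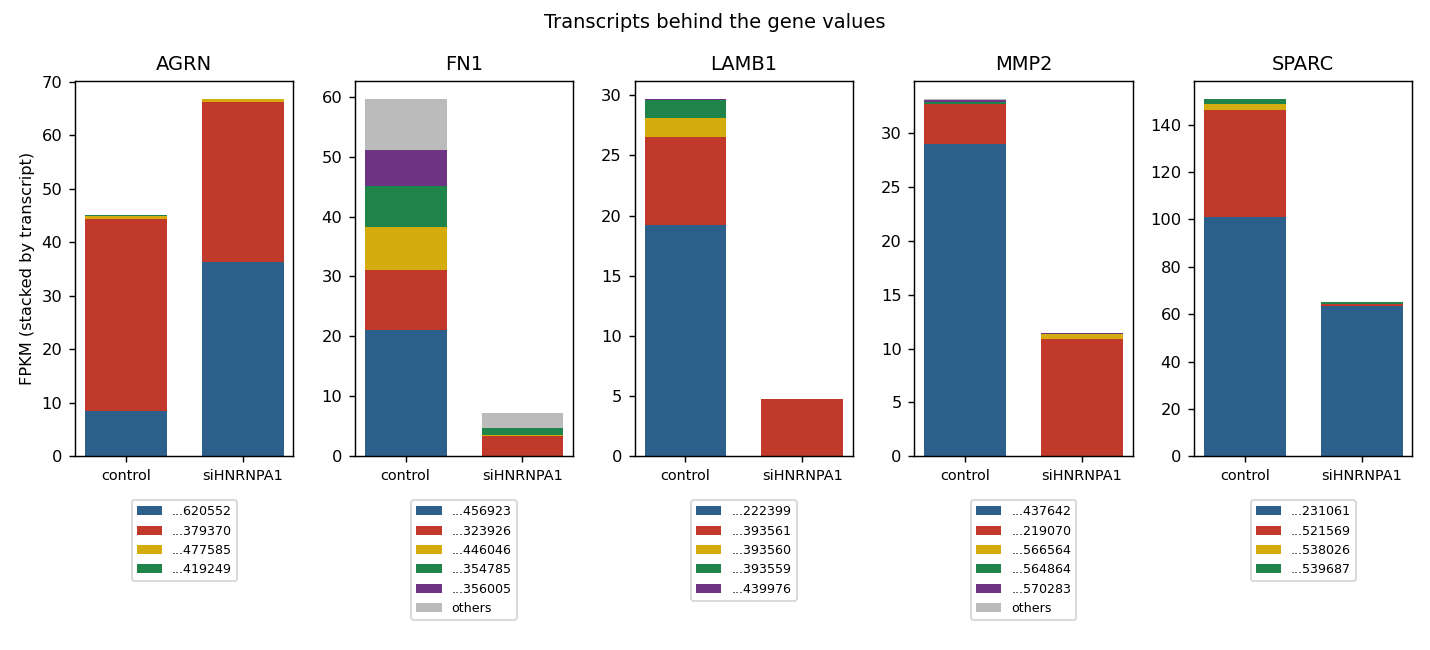
FPKM of AGRN, FN1, LAMB1, MMP2 and SPARC in the control and siHNRNPA1 libraries, 1 library each, stacked by transcript (the legends give the last digits of the Ensembl transcript identifier, and the scale differs between panels). In AGRN the lowest segment, the form with inserts, is 8.55 FPKM high in the control and 36.3 in the siHNRNPA1 library, while in FN1, LAMB1 and MMP2 the lowest segment of the control is missing from the siHNRNPA1 library.

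Of the fibrillar collagens, which form the banded fibres of connective tissue, 3 of 7 were at least 2-fold lower by the plain fold, beside 21.9% of all genes. By the adjusted fold 1 of 7 was, COL2A1, beside 7.92% of all genes. The medians of the 7 were -0.61 and -0.14. COL5A2, a chain of the collagen that starts fibrils, had 2.29 FPKM after knockdown (2.10 to 2.498) and 10.6 in the control (10.1 to 11.02), a log2 fold of -1.81. COL11A1, a minor fibril chain of cartilage, had 0.965 (0.846 to 1.10) and 4.79 FPKM (4.47 to 5.12), a log2 fold of -1.56. Most of COL11A1 in the control, 3.13 FPKM, came from a transcript annotated as a target of nonsense-mediated decay, and over protein-coding transcripts alone its log2 fold was -0.43. COL2A1, the main collagen of cartilage, had 3.22 (2.95 to 3.50) and 8.56 FPKM (8.10 to 9.04), a log2 fold of -1.18. The adjusted folds were -0.96 for COL5A2, -0.79 for COL11A1 and -1.32 for COL2A1.

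The 2 chains of type I collagen, the collagen of skin and bone, lay on opposite sides. COL1A1 had 25.002 FPKM after knockdown (24.3 to 25.7) and 14.5 in the control (13.9 to 15.03), the highest log2 fold of the 38 genes at 0.75. COL1A2 had 8.38 (7.96 to 8.82) and 13.3 FPKM (12.8 to 13.9), a log2 fold of -0.61. The ratio of COL1A1 to COL1A2 was 1.09 in the control library and 2.98 in the siHNRNPA1 library, a change of 1.46 in log2 (1.34 to 1.57). Their adjusted folds were nearer to each other, at 0.58 and -0.14. The chains of type V collagen also parted, with COL5A1 at 2.32 and 2.78 FPKM (-0.19) beside COL5A2. COL27A1 had 5.57 and 6.39 FPKM (-0.17). COL3A1, a partner of type I collagen in fibroblasts, was listed at 0 in both libraries.

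Type VI collagen forms beaded filaments around cells. COL6A1 had 62.5 FPKM after knockdown (61.2 to 63.9) and 88.3 in the control (86.7 to 89.97), a log2 fold of -0.49, and COL6A2 had 40.2 (39.0 to 41.4) and 39.3 (38.1 to 40.5), with overlapping intervals. COL6A3, the third chain of the trimer, was far below both in each library and lower in the siHNRNPA1 library, at 0.103 FPKM (0.0726 to 0.142) against 2.23 (2.05 to 2.42). Its log2 fold was -1.55, and its 37 and 589 estimated counts gave a log2 ratio of -4.07 (-4.59 to -3.59). COL7A1, the chain of anchoring fibrils, had 2.90 and 1.57 FPKM (0.60), and COL26A1 had 51.2 (49.8 to 52.6) and 33.1 (32.0 to 34.3), a log2 fold of 0.61.

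The fibril-associated collagens, which decorate fibrils, were mixed. COL14A1 had 1.49 FPKM after knockdown (1.33 to 1.66) and 5.54 in the control (5.21 to 5.88), a log2 fold of -1.39. It was the only 1 of 6 past 2-fold, beside 21.9% of all genes at least 2-fold lower. Its adjusted fold was -0.29, and by the adjusted fold 0 of the 6 were 2-fold lower, beside 7.92% of all genes. Of the type IX collagen chains, COL9A3 had 37.2 (35.9 to 38.6) and 28.2 (27.0 to 29.4), a log2 fold of 0.39, COL9A2 2.49 and 2.36 FPKM (0.05) and COL9A1 3.13 and 5.84 FPKM (-0.73). COL16A1 had 4.29 and 2.20 FPKM (0.73) and COL22A1 1.09 and 1.12 FPKM (-0.02). In CPM the log2 fold of COL22A1 was -0.61. A transcript of 554 bases, with 11 estimated counts, held 52.0% of its FPKM after knockdown and 15.9% in the control. The transmembrane collagens COL23A1, at 7.80 and 7.33 FPKM (0.08), and COL13A1, at 1.24 and 1.81 FPKM (-0.33), were within 2-fold. COL18A1, the basement membrane collagen from which endostatin is cut, had 76.3 (75.0 to 77.5) and 60.6 (59.4 to 61.8), a log2 fold of 0.33.

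The 24 members below the minimum had mean levels of up to 0.915 FPKM. Of these, 16 were lower and 5 higher in the siHNRNPA1 library, and 3 were listed at 0 in both. The shares over all genes below the minimum were not counted. Several of these members had few reads, COL6A6 for example 2 estimated counts after knockdown and 3 in the control. Those with at least 0.5 FPKM in either library, beside the laminins above, were COL25A1 (0.225 FPKM after knockdown and 1.51 in the control), COL8A2 (0.874 and 0.956), COL11A2 (0.948 and 0.775), COL5A3 (0.749 and 0.314), COL8A1 (0.0182 and 0.756) and COL21A1 (0.198 and 0.747).

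The scale of the libraries did not decide most signs. Under 4 scalings (FPKM, TPM, FPKM rescaled by the median ratio, and CPM) 25 of the 38 genes were below 0 each time and 8 above 0 each time. These 8 were COL1A1, COL7A1, COL9A3, COL16A1, COL18A1, COL26A1, LAMB2 and AGRN. The sign turned with the scaling for COL6A2, COL9A2, COL22A1, COL23A1 and LAMC3. The shares of all genes with these signs were not counted. Rescaling by the median ratio brought the median of all genes from -0.13 to 0.00053 and that of the matrix genes to -0.33, with 15 genes at least 2-fold lower.

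Base composition moved with these differences. The members' transcripts had a median GC content of 60.3%, against 50.7% over all genes kept, and a median length of 5777 nucleotides against 2677. Across the 38 members Spearman's rho of the fold with GC content was 0.77, and with length -0.22. Over all genes kept, which share the same 2 libraries, it was 0.58 and -0.49. With all genes in 5 equal groups by GC content, no member fell in the lower 2 groups. Of the 11 members in the middle group, from 47.5% to 53.9% GC, 10 were at least 2-fold lower, where 18.5% of all genes of that group were. Of the 7 members in the next group 4 were lower, where 6.67% of all genes were.

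The 20 members with at least 59.6% GC held most of the genes near or above the control level. In that group 2 members were at least 2-fold lower, COL2A1 and HSPG2, where 2.10% of all genes were. No member of the group was 2-fold higher, where 28.7% of all genes were. With all genes in 5 equal groups by length instead, 27 members fell in the longest group, from 4564 nucleotides on. Of these, 14 were at least 2-fold lower, where 44.8% of all genes of that group were. None was 2-fold higher, where only 1.89% of all genes of that group were.

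**Figure D3:**
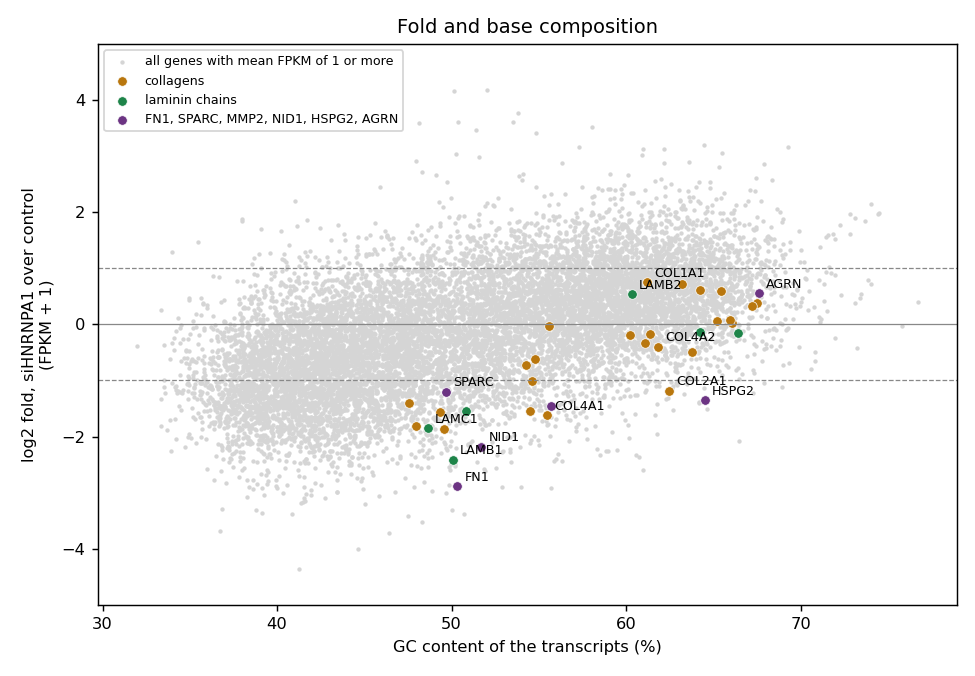
Log2 fold of FPKM (siHNRNPA1 over control, 1 library each, 1 FPKM added) against the GC content of each gene's transcripts, for all genes with a mean of at least 1 FPKM (grey) and for collagens, laminin chains and the other matrix genes (coloured), with dashed lines at 2-fold. Most matrix genes with 47.5% to 53.9% GC lie below the lower line, and of the 20 with at least 59.6% GC only COL2A1 and HSPG2 do.

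The 9 genes at least 2-fold lower by the adjusted fold were FN1 (-2.15), LAMB1 (-1.62), MMP2 (-1.58), HSPG2 (-1.53), NID1 (-1.52), COL2A1 (-1.32), COL4A1 (-1.25), COL4A5 (-1.08) and COL6A3 (-1.05). The members' median was -0.46, as before the adjustment. COL9A3 went from 0.39 to -0.39, COL6A2 from 0.03 to -0.56 and COL23A1 from 0.08 to -0.47. COL26A1 went from 0.61 to 0.06, COL18A1 from 0.33 to 0.05 and AGRN from 0.56 to 0.29. COL7A1, at 0.60 and 0.64, and COL16A1, at 0.73 and 0.60, moved less. COL6A1 went from -0.49 to -0.85. LAMC1 (-0.86), LAMA1 (-0.71), COL5A2 (-0.96), COL11A1 (-0.79), COL14A1 (-0.29), COL4A6 (-0.36) and SPARC (-0.998) were then within 2-fold. The part of base composition and length in the differences was not tested further.

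**Figure D4:**
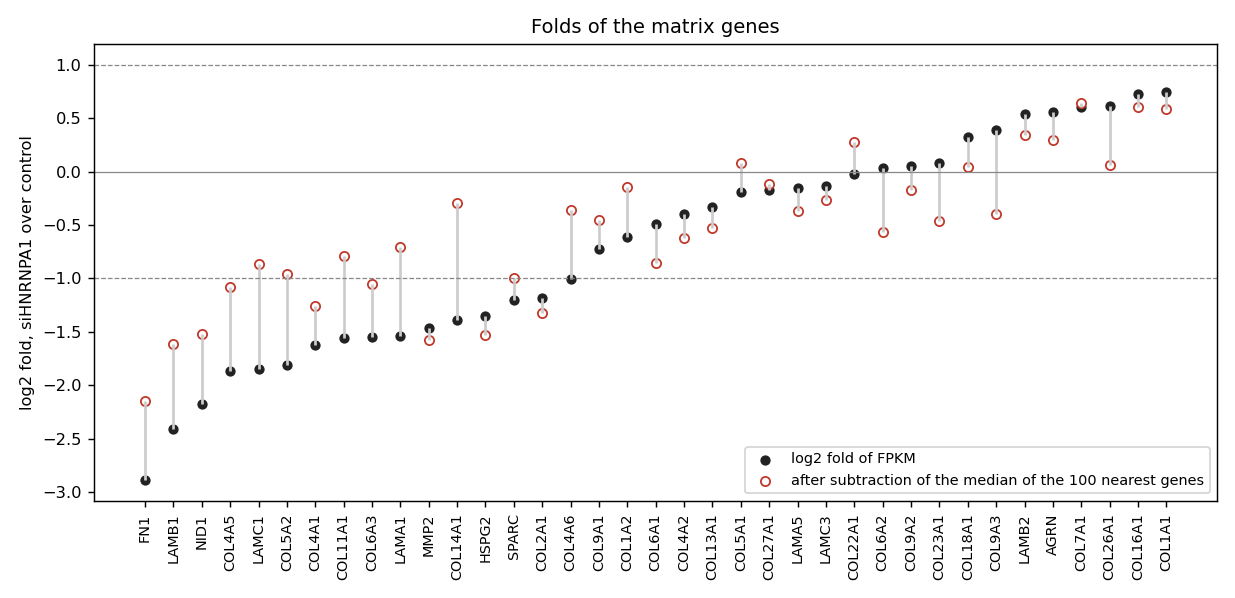
Log2 fold of FPKM of 37 of the matrix genes (siHNRNPA1 over control, 1 library each; filled) and the same after subtracting the median over the 100 closest genes in expression, GC content and length (open), with dashed lines at 2-fold. FN1 is lowest by both measures, at -2.89 and -2.15, and no gene passes the upper line.

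Other genes of the matrix were read from lists beside the members. Among the enzymes and chaperones of collagen synthesis, 5 of 26 measured genes were 2-fold lower or more, 0 were 2-fold higher, and the median was -0.15, near the 21.9% lower and the median of -0.13 over all genes. By the adjusted fold 2 of the 26 were lower, beside 7.92% of all genes, and the median was -0.41, beside 0.0042 over all genes. Those with the largest plain folds were PLOD2, a lysyl hydroxylase (0.784 FPKM after knockdown and 6.57 in the control), MIA3, which loads procollagen for export (3.52 and 17.6), P4HA1, a subunit of prolyl hydroxylase (3.31 and 14.5), and PXDN, which crosslinks type IV collagen (25.2 and 54.6). The adjusted fold of PLOD2 was -1.12. Those of MIA3 (-0.94), P4HA1 (-0.88) and PXDN (-0.79) were within 2-fold. Of matrix receptors other than integrins, 2 of 9 were lower and 0 higher (median -0.56), again a share near that of all genes. By the adjusted fold 3 of the 9, DAG1, LRP4 and SDC3, were lower (median -0.21), beside 7.92% of all genes. DAG1, which encodes dystroglycan, the receptor of laminin, agrin and perlecan, had 5.59 FPKM with and 48.6 without the knockdown, a log2 fold of -2.91 and an adjusted fold of -2.87. LRP4, the agrin receptor, had 3.29 and 10.7 FPKM (-1.44). SDC3, a syndecan, was at -0.87 and the collagen receptor DDR1 at 0.81, both within 2-fold by the plain fold. Their adjusted folds were -1.05 and 0.33.

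Proteases and their inhibitors lay on both sides, 4 of 21 past 2-fold on the lower and 3 on the higher side (median 0.21), shares near the 21.9% and 12.4% of all genes. By the adjusted fold 1 was lower and 3 were higher, beside 7.92% and 7.99% of all genes. The adjusted median was on the other side of 0, at -0.17. TIMP4, a metalloproteinase inhibitor, had 14.1 FPKM after knockdown and 1.35 without it (2.69). MMP16, a membrane metalloproteinase (-1.77), and SERPINE2 (-1.16) were lower. Of 30 other matrix glycoproteins 11 were lower and 2 higher (median -0.45), beside 21.9% and 12.4% of all genes. By the adjusted fold 6 were lower and 2 higher (median -0.44), beside 7.92% and 7.99% of all genes. FBN2 and LTBP1, which build microfibrils and tether latent TGF-beta, stood at -2.30 and -2.28, EFEMP1, a fibulin, at -1.96 and THBS3, a thrombospondin, at 1.93.

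Some of these genes share exonic sequence with other genes. LAMB1, COL9A3, HSPG2, COL18A1 and FBN2 overlap exons of a gene on the opposite strand that is also in the table (DLD, TCFL5, LDLRAD2, SLC19A1 and SLC27A6). Whether the counting used strand is not given in the sources used here, so their reads are uncertain there.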

How the data were processed

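Messenger RNA libraries of H9 cells were sequenced, 1 per condition, per the labels' protocols. The authors deposited whole-number values per transcript that behave as estimated counts rounded up, and the deposited TPM and FPKM stand beside them per the file headers. For aligner, quantifier and annotation release the sources used here give no name. Mouse builds stand in the submitters' processing notes, but all 269 member transcripts are in the human GENCODE release 29 (GRCh38), 254 at the same position. A further 6 columns hold per-sample values under names that match no label, and they were not used.

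FPKM was summed per gene (Python 3.11.15, pandas 2.3.3, scipy 1.17.1). GC content and length are FPKM-weighted means over a gene's GENCODE transcripts, known for 11920 of the 11921 genes kept. The subtraction used ranks of expression, GC content and length and was checked on simulated data. Other pseudocounts, minima, scalings and protein-coding transcripts alone were tried as alternatives. Every member above the minimum is named except 1, which, like 1 gene of the other lists, is not reported here by name and is left out of the figures, though both are in the counts and medians. Of the other lists the text names up to 4 genes by absolute fold, and it names transcripts whose share differs by 20 points. COL11A1's decay transcript, the EDA and EDB exons and the LAMB1 transcripts were looked at after their values were seen. Members and lists were chosen with earlier results of these data known.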

Additional observations from a re-analysis of the deposited data

How the results depend on the processing

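The count of matrix genes at least 2-fold higher was 0 under each of the 9 alternatives. The count of those at least 2-fold lower was 16 as reported, 10 with a pseudocount of 5 FPKM and 9 after subtraction of the nearest genes, and was within 1.5 times of 16 in the other settings. The median log2 fold of -0.46 was -0.56 with a pseudocount of 0.1 FPKM, -0.39 with 5 FPKM, -0.33 without the expression minimum, -0.49 with a minimum of 5 FPKM, -0.64 in TPM, -0.33 with median ratio scaling, -0.58 in CPM and -0.43 over protein-coding transcripts. The cause of these shifts was not tested. Transcript shares differed by 20 points in 5 of 29 members at a minimum of 2 FPKM, beside 43.0% of all genes compared. The count was 3 of 13 at 10 FPKM, beside 37.8%, and 3 of 20 by estimated counts, beside 36.3%. No 2-fold lower gene turned its sign. No paired analysis was possible because each condition has 1 library. Depth limits COL6A3 most, with 37 counts in the siHNRNPA1 library.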
